A study of Mus musculus with 11 samples.

Results

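Elastic fibres are described here through 10 genes chosen by symbol from the 24411 gene symbols of the count table: Eln, Fbn1, Fbn2, Fbln2, Fbln5, Efemp2, Mfap4, Ltbp4, Lox and Loxl1. All 10 were present and all 10 passed the filter on low counts, among 16011 genes tested. RNA was sequenced in bulk from lung mesenchymal cells of C57BL6 mice, which had been sorted as negative for the epithelial marker EpCAM, the haematopoietic marker CD45 and the endothelial marker CD31. The cells were taken on day 7 or day 14 following either PNX (pneumonectomy, in which part of the lung is removed) or a sham operation. The 11 libraries comprise 3 PNX and 3 sham libraries of day 7, and 3 PNX and 2 sham libraries of day 14, and the labels give no age and no genetic change for any group. Whether replicates came from different animals is not labelled; the p-values therefore reflect variation among libraries, part of which may be technical.

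Elastic fibres give the alveolar wall and the lung vessels their recoil. Fibrillins assemble into microfibrils, fibulins and latent TGF-beta binding proteins bring elastin (tropoelastin) onto that scaffold, and enzymes of the lysyl oxidase family oxidise lysine side chains so that elastin molecules become cross-linked. In the lung, fibroblasts, myofibroblasts and smooth muscle cells make these proteins, above all while alveoli form. Compensatory growth of the remaining lung after pneumonectomy is the setting that the comparison of PNX with sham surgery addresses.

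The cross-linking chemistry is visible in the elastin gene itself, and the exon below is shown because it is the substrate side of the Lox and Loxl1 results. Eln lies on chromosome 5 at 134702593 to 134747323, on the minus strand of GRCm38, and its longest annotated coding sequence has 860 codons in 37 coding exons, with 38 lysine codons. Of the coding exons compared, exon 18 at chr5:134718989-134719048 has the largest share of lysine codons, with 3 among 19 whole codons. Exons shorter than its 60 bases, and very long ones, were not compared. It reads as follows in the coding direction, with the lysine codons in capitals.

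Eln exon 18: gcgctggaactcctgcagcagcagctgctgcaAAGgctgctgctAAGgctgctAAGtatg

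Before the results, the libraries themselves differed. At day 7, total counts were 2963341 to 7614122 for PNX and 4082935 to 8362119 for sham; at day 14 they were 4733716 to 7895688 for PNX and 2539628 to 9008592 for sham. Olfactory and vomeronasal receptor genes, which measure background here, took from 89.9 to 1606 CPM (counts scaled to library size). Sham replicate 1 of day 14 had both the highest background and the lowest total count of the 11 libraries. Of the 2 sham libraries of day 14, it was the lower for Fbn1, Fbln2, Fbln5, Efemp2, Mfap4, Ltbp4 and Lox. For Eln, Fbn2 and Loxl1 it was the higher. A GC trend, given as the rank correlation across genes of a library's deviation with GC content, ran from -0.285 in a sham library of day 14 to 0.44 in a sham library of day 7, and lay between -0.246 and -0.205 in all 3 PNX libraries of day 14. Of the 11 libraries, 7 had counts on 4 Y-linked genes and 4 had none, namely PNX replicates 2 and 3 of day 14, sham replicate 3 of day 7 and sham replicate 1 of day 14. Markers of the mesenchyme were present in every group. The 6 smooth muscle markers summed to 1880 to 2230 CPM in PNX at day 7, 1590 to 2610 in sham at day 7, 2400 to 3190 in PNX at day 14 and 1470 to 1950 in sham at day 14. Transcripts of the gated-out cell types were not absent: Ptprc, which encodes CD45, stood at 5.26 to 51.1 CPM, Pecam1, which encodes CD31, at 11 to 247 CPM and Epcam at 0.58 to 13.4 CPM over the 11 libraries, with no library at 0. Whether such cells or background gave these counts was not tested. The surfactant gene Sftpc of alveolar epithelium reached 23.5 to 15500 CPM, the club cell gene Scgb1a1 3.77 to 1550 CPM, and 5 erythroid markers, mostly globins, summed to 254 to 79900 CPM; their part in the results was not tested. In bulk RNA, fewer cells of a type and less RNA per cell cannot be told apart.

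The 10 genes together took 0.290% to 0.747% of a library's counts. Levels of different genes can be compared only per length, as CPM per kb of exon. On that scale Mfap4, a microfibril-associated glycoprotein, was the highest of the 10 in all 11 libraries, at a median of 877 CPM per kb with a range of 562 to 1767. Fbn2, the fibrillin best known from development, was the lowest in all 11, at a median of 0.334 CPM per kb. The other 8 had medians between 26.9 CPM per kb (Fbln2) and 105 CPM per kb (Eln), and their order changed between libraries: Eln ranked from 2 to 7, Ltbp4 from 2 to 7 and Loxl1 from 2 to 5. In the order of medians (Eln, Loxl1, Fbn1, Lox, Ltbp4, Fbln5, Efemp2, Fbln2) the ranges of each pair of neighbours over all 11 libraries overlap. Within a group, neighbours can still separate. In PNX at day 7 Lox stood at 71.2 to 82.7 CPM per kb, against 35.2 to 42.9 for Ltbp4. In sham at day 7 the order was the other way, with Lox at 38.4 to 58.5 and Ltbp4 at 74.7 to 346. Mfap4 made up a median of 62.9% of the summed per-length level of the 10 genes in PNX at day 7, against 52.0% in sham at day 7, and 60% in PNX at day 14, against 79.1% in sham at day 14.

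**Figure D1:**
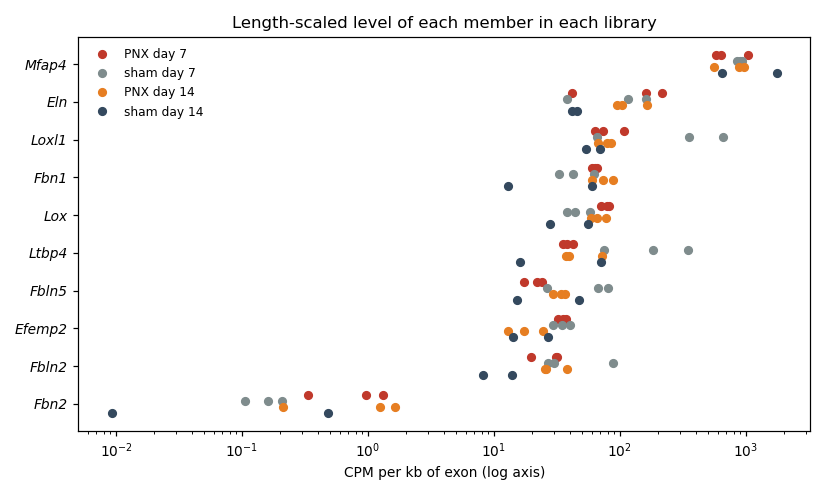
Length-scaled level (CPM per kb of exon, log axis) of each gene in each of the 11 libraries, coloured by group. Mfap4 lies above every other gene in each library, Fbn2 lies below every other gene, and between them the ranges of neighbouring genes overlap.

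None of the 10 genes passed an adjusted p of 0.05 in PNX against sham at day 7, where edgeR called 0.0375% of all genes (6 of 16011). At an unadjusted p under 0.05 there were 5 of the 10, in both directions: Fbn2 and Lox stood higher in PNX, and Fbln5, Ltbp4 and Loxl1 lower. Over all genes, 4.66% were higher and 8.07% lower at that unadjusted level. With the other tools, DESeq2 called 3 of the 10 at day 7 (Ltbp4, Loxl1 and Fbln5, all lower in PNX) and limma voom called 2 (Ltbp4 and Fbln5), while they called 442 and 932 genes overall. The 10 log2 fold changes were positive for 5 and negative for 5, with a median of -0.12 beside 0.03 over all genes.

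None of the 10 passed at day 14 either, where edgeR called 0.00625% of all genes (1 of 16011). The unadjusted p was under 0.05 for 2 of them, Eln and Fbln2, both higher in PNX, beside 3.19% of all genes higher. DESeq2 and limma voom called none of the 10, and 111 and 0 of all genes. The log2 fold change was positive for 8 of the 10, beside 45.1% of all genes, with a median of 0.50 beside -0.07 over all genes. In the mean of both days edgeR called 0.194% of all genes (31, of which 22 or 0.137% were higher and 9 or 0.0562% lower; with total counts in place of TMM scaling, 28 and 22) and none of the 10; 7 of the 10 had an unadjusted p under 0.05, Eln, Fbn1, Fbn2 and Lox higher and Fbln5, Ltbp4 and Loxl1 lower, beside 3.92% of all genes higher and 6.37% lower. DESeq2 called 1 of the 10 (Fbn2) and 305 of all genes, and limma voom called none of the 10 and 5 of all genes.

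**Figure D2:**
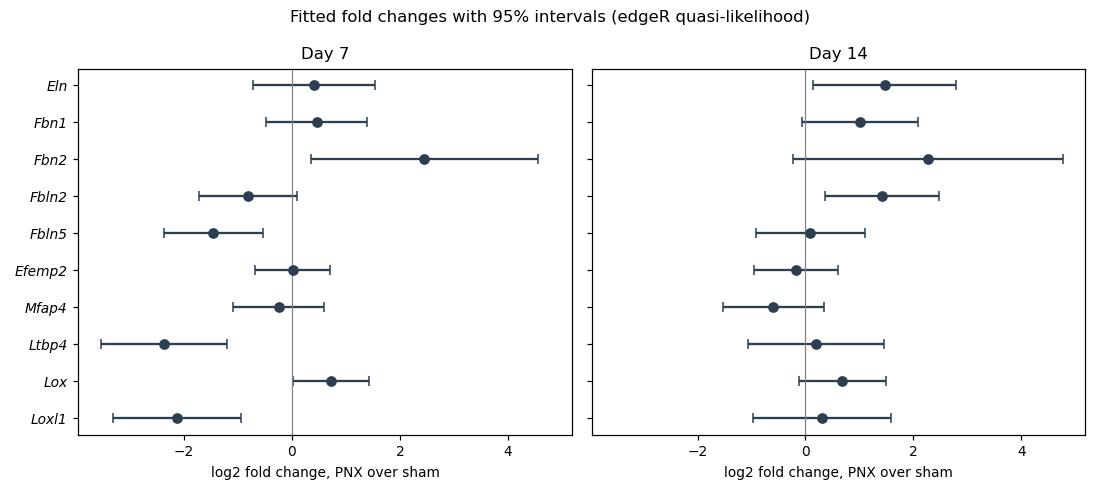
Log2 fold change of PNX over sham for the 10 genes at day 7 (left) and day 14 (right), with 95% intervals from the edgeR quasi-likelihood test. At day 7 Ltbp4, Loxl1 and Fbln5 lie below 0 and Fbn2 and Lox above it with intervals that exclude 0; at day 14 only the intervals of Eln and Fbln2 exclude 0, and no adjusted p passed on either day.

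Eln encodes elastin, the core protein of the fibre. Its level was 1296, 1745 and 339 CPM in the 3 PNX libraries of day 7, against 309, 1295 and 948 CPM in the 3 sham libraries of day 7. The highest library was 5.14-fold above the lowest in PNX and 4.19-fold in sham, and the groups overlap. On the log2 scale the fold change was 0.41 ± 0.53 (SE; adjusted p = 0.810). At day 14 Eln stood at 1339, 773 and 850 CPM in PNX, against 372 and 341 CPM in sham. Every PNX library of day 14 was above both sham libraries, as for 9.57% of all genes. Its log2 fold change was 1.47 ± 0.63, with a 95% interval of 0.14 to 2.80, an unadjusted p of 0.0319 and an adjusted p of 0.691. The difference between the days in the effect of surgery was 1.07 ± 0.81 (adjusted p = 0.681), so the larger value at day 14 was not resolved from that at day 7. Smooth muscle markers, whose cells also make elastin, were higher in all PNX than in all sham libraries of day 14 in their summed CPM. Of the 6, 5 had a positive log2 fold change and 1 a negative one, and Tagln, Cnn1 and Des overlapped between the groups. Of 5 alveolar myofibroblast markers, 2 had a positive and 3 a negative log2 fold change at day 14. None of these markers passed the test at day 14, and their part in the Eln values was not tested.

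Fbn1 encodes fibrillin-1, the main microfibril protein of the adult (GRCm38 chromosome 2, 125300594 to 125507993). It stood at 798, 725 and 777 CPM in PNX at day 7, a spread of 1.1-fold, against 761, 398 and 514 CPM in sham. At day 14 it stood at 1077, 729 and 899.9 CPM in PNX, against 157 and 735 CPM in sham. The groups overlap on both days because 1 sham library on each day reached the PNX range. In log2 terms the difference was 0.46 ± 0.45 at day 7 (adjusted p = 0.742) and 1.02 ± 0.51 at day 14 (adjusted p = 0.747). The value at day 14 rests on the sham libraries: without sham replicate 2 it was 2.67 (adjusted p = 0.0369) and without sham replicate 1 it was 0.29.

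Fbn2 (GRCm38 chromosome 18, 58008623 to 58210487) encodes fibrillin-2, which also builds microfibrils, and it had the lowest counts of the 10, 494 in all 11 libraries. It stood at 4.42, 12.7 and 17.5 CPM in PNX at day 7, against 1.41, 2.15 and 2.76 CPM in sham, and every PNX library lay above every sham library, as for 9.95% of all genes. The log2 fold change at day 7 was 2.45 ± 0.97 (adjusted p = 0.305). At day 14 it stood at 2.80, 21.7 and 16.6 CPM in PNX, against 6.38 and 0.122 CPM in sham, where the lower library held a single count. The groups overlap at day 14 and the log2 fold change was 2.27 ± 1.15 (adjusted p = 0.747); it was 6.58 without sham replicate 1 and 1.26 without sham replicate 2. In the mean of both days it was 2.36 ± 0.76 (adjusted p = 0.267), and 4.51 (adjusted p = 0.0183) without sham replicate 1 of day 14.

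**Figure D3:**
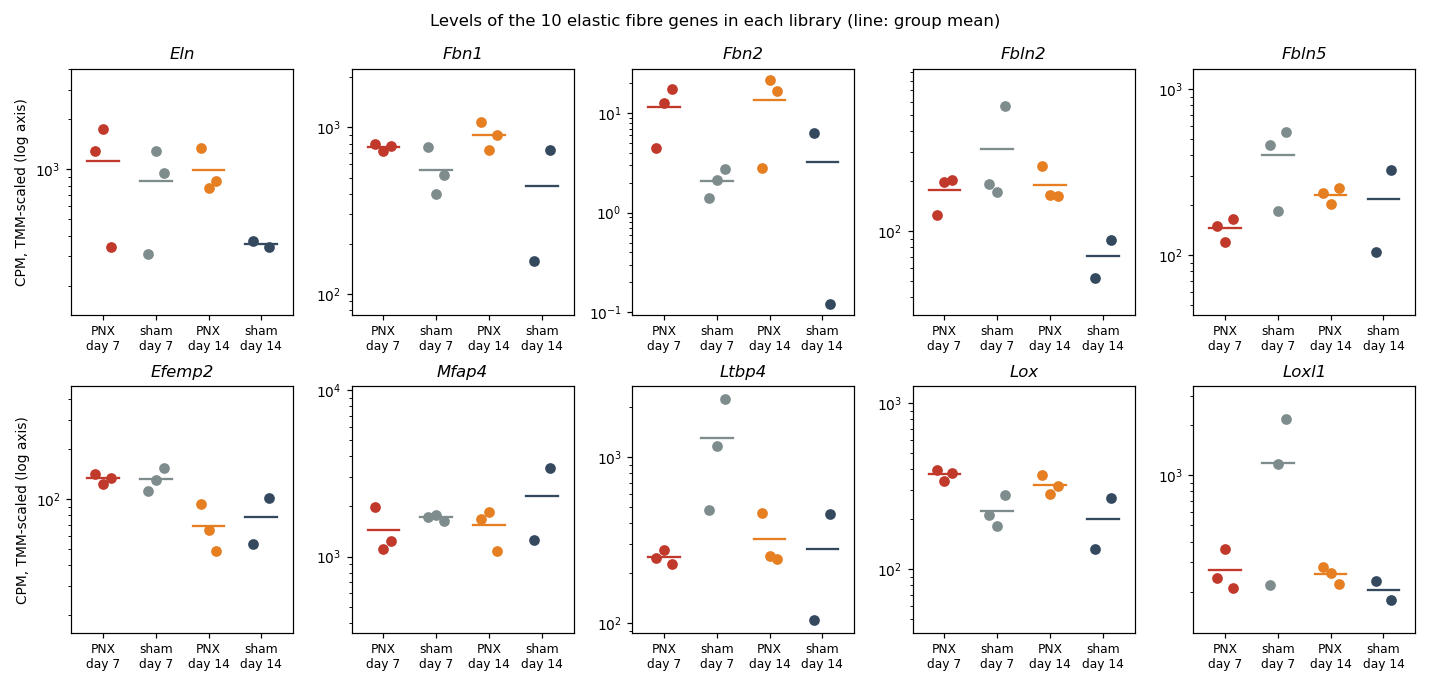
Level (CPM scaled by TMM factors, log axis) of each of the 10 genes in each library, with a line at the group mean. Lox shows the 6 PNX libraries at 282 to 395 CPM above the 5 sham libraries at 132 to 279.5 CPM, and Ltbp4 and Loxl1 show a high and wide sham group at day 7.

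Lox encodes lysyl oxidase, which starts the cross-links of elastin and collagen (GRCm38 chromosome 18, 52516067 to 52529867). It stood at 395, 340.0 and 381 CPM in PNX at day 7, against 212, 183 and 279.5 CPM in sham. At day 14 it stood at 369, 282 and 317 CPM in PNX, against 132 and 269 CPM in sham. All 6 PNX libraries were above all 5 sham libraries, which held for 0.637% of all genes (102 of 16011) and, of the 10, for Lox alone; the margin between the lowest PNX and the highest sham library was narrow, 282.2 against 279.5 CPM. The log2 fold change was 0.73 ± 0.34 at day 7 (adjusted p = 0.375), 0.68 ± 0.38 at day 14 (adjusted p = 0.756; 0.25 to 1.43 with one library left out) and 0.70 ± 0.25 in the mean of both days, with a 95% interval of 0.17 to 1.24, an unadjusted p of 0.0127 and an adjusted p of 0.302. The interaction of surgery and day was -0.04 ± 0.50 for Lox, with an interval of -1.10 to 1.01. Over the other settings the value for the mean of both days lay between 0.60 and 0.83, with adjusted p between 0.0708 and 0.600, and with one library left out it lay between 0.48 and 1.05. The summed CPM of 7 alveolar fibroblast markers was lower in every PNX library than in every sham library of the same day. They summed to 2510 to 3190 CPM in PNX at day 7, against 4670 to 6430 CPM in sham. At day 14 they summed to 2670 to 5420 CPM in PNX, against 6080 to 8520 CPM in sham. Single markers could overlap, as Limch1 did on both days and Itga8 and Npnt did at day 14. All 7 had a negative log2 fold change on both days and 1 passed in the mean of both days; their part in the values of the 10 genes was not tested.

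Loxl1 encodes lysyl oxidase-like 1, an enzyme of the same family that fibulin-5 brings to elastin in the mouse (GRCm38 chromosome 9, 58287738 to 58313186). It stood at 243, 358 and 211 CPM in PNX at day 7, against 218, 1172 and 2168 CPM in sham. The PNX libraries and sham replicate 1 lie close together, while sham replicates 2 and 3 lie far above all of them, so the groups overlap. The log2 fold change was -2.13 ± 0.56, with a 95% interval of -3.31 to -0.95 and an adjusted p of 0.116. It was -2.63 (adjusted p = 0.00504) without sham replicate 1 and -1.36 (adjusted p = 0.690) without sham replicate 3, which is the sham library of day 7 with no Y-linked count. At day 14 Loxl1 stood at 280, 260.0 and 223 CPM in PNX, against 232 and 179 CPM in sham, and the log2 fold change was 0.31 ± 0.60 (adjusted p = 0.926).

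Ltbp4 encodes latent TGF-beta binding protein 4, which binds fibulin-5 and helps to lay elastin onto microfibrils (GRCm38 chromosome 7, 27305136 to 27337692). It stood at 248, 277 and 227 CPM in PNX at day 7, against 483, 1175 and 2237 CPM in sham, and every PNX library lay below every sham library, as for 9.57% of all genes. The log2 fold change was -2.37 ± 0.56, with a 95% interval of -3.54 to -1.20, an unadjusted p of 0.000529 and an adjusted p of 0.0910, the smallest of the 10 at day 7. It reached an adjusted p of 0.00981 without sham replicate 1 of day 7 and 0.477 without sham replicate 3 (-1.73). Without sham replicate 1 or replicate 2 of day 14 the adjusted p for day 7 was 0.0383 and 0.0299. At day 14 Ltbp4 stood at 463, 256 and 243 CPM in PNX, against 105 and 455 CPM in sham, where the groups overlap (0.19 ± 0.59, adjusted p = 0.952).

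Fbln5 encodes fibulin-5, which binds elastin, Ltbp4 and Loxl1 (GRCm38 chromosome 12, 101746565 to 101819055). It stood at 151, 120 and 166 CPM in PNX at day 7, against 463, 184 and 554.5 CPM in sham. Again every PNX library lay below every sham library, as for 9.57% of all genes. PNX over sham gave a log2 fold change of -1.46 ± 0.44, with a 95% interval of -2.37 to -0.54 and an adjusted p of 0.153. With the background as a covariate it was -0.85 (adjusted p = 0.276). At day 14 it stood at 237, 204 and 253 CPM in PNX, against 105 and 328 CPM in sham (0.09 ± 0.48, adjusted p = 0.973), and the sham libraries lie on either side of all PNX libraries.

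The GC trend of each library is set here beside the high sham values of day 7. Ltbp4 (62.2% GC) and Loxl1 (61.0% GC) have the highest GC content of the 10, and sham replicates 2 and 3 of day 7, where both were highest, had GC rank correlations of 0.44 and 0.218, the highest of the 11 libraries. Fbln5, at 46.9% GC, and Lox, at 43.9% GC, have the lowest GC content. The part of the GC trend in these levels was not tested. PNX replicate 2 of day 7 had a correlation of 0.201, with 277 CPM of Ltbp4 and 358 CPM of Loxl1. Sham replicate 2, at 0.44, held 1175 and 1172 CPM of these genes, below the 2237 and 2168 CPM of sham replicate 3, at 0.218. With an offset for the GC trend of each library, a setting added after the data were seen, the day 7 log2 fold change was -1.81 for Ltbp4 (adjusted p = 0.170), -1.55 for Loxl1 (adjusted p = 0.165), -1.40 for Fbln5 (adjusted p = 0.124) and 0.71 for Lox (adjusted p = 0.260). Adventitial fibroblast markers also reached higher sums in sham at day 7. The sum of 7 of them ranged from 5590 to 12700 CPM in PNX at day 7, against 7590 to 22700 CPM in sham. Single markers differed in direction, 5 with a negative and 2 with a positive log2 fold change. Ly6a stood at 303 to 422 CPM in PNX, against 189 to 285 CPM in sham. Ly6c1 stood at 107 to 169 CPM in PNX, against 72.2 to 104 CPM in sham. None of the 7 passed the test, and their part in these results was not tested.

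**Figure D4:**
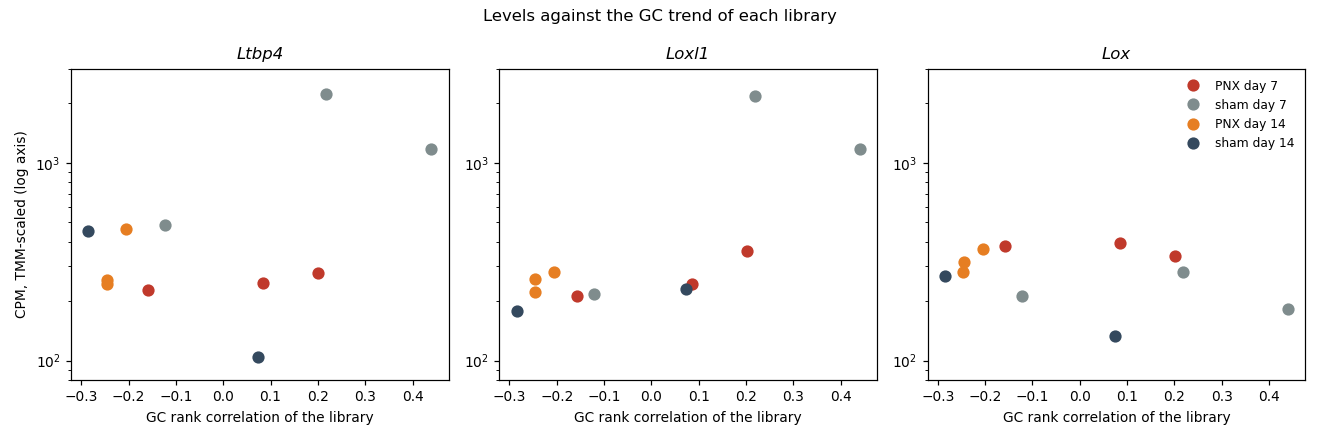
Level (CPM scaled by TMM factors, log axis) of Ltbp4, Loxl1 and Lox in each library against the library's GC rank correlation. The 2 sham libraries of day 7 with the highest GC rank correlation, 0.218 and 0.44, hold the highest levels of Ltbp4 and Loxl1, and Lox shows no such peak there. PNX replicate 2 of day 7, at 0.201, holds 277 CPM of Ltbp4 and 358 CPM of Loxl1.

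Ltbp4 and Fbln5 were the pair of the 10 with no overlap downward at day 7, so their promoters are shown. The table of RefSeq promoters on GRCm38.p6 held 5 of the 10 genes (Fbn1, Fbln2, Ltbp4, Fbln5 and Efemp2). The 250 bases before an annotated start of each are printed with GC boxes in capitals, searched as GGGCGG or its reverse complement CCGCCC, overlapping matches counted singly and capitalised as 1 run; where a gene has several starts, the one with no base in an annotated exon is given. The Ltbp4 promoter lies at chr7:27333664-27333913 on the minus strand and holds 7 GC boxes at 79.2% GC. The Fbln5 promoter lies at chr12:101819120-101819369 on the minus strand and holds 2 GC boxes at 65.2% GC.

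Ltbp4 promoter: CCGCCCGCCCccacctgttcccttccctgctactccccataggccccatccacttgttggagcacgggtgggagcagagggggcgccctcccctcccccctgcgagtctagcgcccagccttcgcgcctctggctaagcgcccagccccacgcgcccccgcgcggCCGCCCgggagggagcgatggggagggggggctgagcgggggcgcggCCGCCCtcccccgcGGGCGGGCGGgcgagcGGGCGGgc

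Fbln5 promoter: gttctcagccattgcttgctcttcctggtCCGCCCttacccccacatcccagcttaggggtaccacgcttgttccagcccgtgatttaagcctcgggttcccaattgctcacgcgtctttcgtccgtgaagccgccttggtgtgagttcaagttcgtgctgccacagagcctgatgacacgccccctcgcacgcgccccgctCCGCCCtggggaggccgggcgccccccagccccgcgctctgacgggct

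A GC box was present in 32.7% of the 32851 promoters of the same length in the table, whose median GC content was 52.4%. The AP-1 motif TGAGTCA, searched on both strands, was present in 4.46% of them and in neither of these windows. These matches describe the letters of the windows only.

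Fbln2 encodes fibulin-2, which binds fibrillin-1 and elastin in the vessel wall (GRCm38 chromosome 6, 91212455 to 91272540). It stood at 126, 197 and 204 CPM in PNX at day 7, against 191, 172 and 567 CPM in sham, with sham replicate 3 alone above the rest (-0.82 ± 0.43, adjusted p = 0.457; -0.05 without that library). At day 14 it stood at 244, 164 and 162 CPM in PNX, against 52.4 and 88.7 CPM in sham. Every PNX library of day 14 lay above both sham libraries, as for 9.57% of all genes. The difference between the days in the effect of surgery, 2.24 ± 0.66 on the log2 scale (unadjusted p = 0.00327, adjusted p = 0.351), had the smallest p of the 10.

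Efemp2 and Mfap4 had no unadjusted p under 0.05 in any comparison of PNX with sham. Efemp2 encodes fibulin-4, which brings Lox to elastin in the mouse (GRCm38 chromosome 19, 5473954 to 5482517). It stood at 142, 123 and 135 CPM in PNX at day 7, against 112, 131 and 154 CPM in sham, and at 93.1, 65.3 and 48.8 CPM in PNX at day 14, against 54.1 and 101 CPM in sham. The 95% intervals were -0.68 to 0.71 at day 7 and -0.95 to 0.61 at day 14. Mfap4 (GRCm38 chromosome 11, 61485431 to 61488900) stood at 1992, 1113 and 1233 CPM in PNX at day 7, against 1740.0, 1783 and 1634 CPM in sham, and at 1686, 1854 and 1081 CPM in PNX at day 14, against 1254 and 3397 CPM in sham. Its 95% intervals were -1.10 to 0.60 at day 7 and -1.54 to 0.35 at day 14. Efemp2 shares 173 bases of exon with Mus81 on the opposite strand and Mfap4 shares 89 bases with Mapk7; Mus81 had 1057 counts beside 6913 for Efemp2 and Mapk7 had 880 beside 114533 for Mfap4. Eln, Fbn1, Fbn2 and Lox also share exon bases with genes of the opposite strand, not analysed here. The strand setting of the counting is not known, so reads of the shared bases cannot be assigned.

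Between the days, none of the 10 passed in either surgery group. In day 14 against day 7 after sham, edgeR called 0.0187% of all genes (3) and 8 of the 10 had a negative log2 fold change, with a median of -0.82 beside 0.05 over all genes. Fbln2, Loxl1 and Ltbp4 were the 3 with an unadjusted p under 0.05, at -2.13 ± 0.52 (adjusted p = 0.0997), -2.53 ± 0.66 (adjusted p = 0.116) and -2.21 ± 0.64 (adjusted p = 0.127). Over all genes 6.32% were higher and 7.94% lower at that unadjusted level. Fbln2, Ltbp4 and Efemp2 were lower in both sham libraries of day 14 than in all 3 of day 7, as for 11.8% of all genes. DESeq2 called Fbln2, Loxl1 and Ltbp4 among 662 of all genes, and limma voom called none of the 10 and 1 of all genes. After PNX, edgeR called 0% of all genes at day 14 against day 7 (1096 had an unadjusted p under 0.05, 3.72% higher and 3.13% lower), DESeq2 called none of the 10 and 59 of all genes, and limma voom called 1 of the 10, Efemp2, and 174 of all genes. Efemp2 was the lowest of them (-0.95 ± 0.34, unadjusted p = 0.0112, adjusted p = 0.688), with all 3 libraries of day 14 below all 3 of day 7, as for 9.08% of all genes, while Fbln5 was higher in all 3, as for 9.02% (0.66 ± 0.43, adjusted p = 0.765). The interaction of surgery and day was called for no gene by edgeR (1402 had an unadjusted p under 0.05, 4.16% positive and 4.60% negative), for 77 genes by DESeq2 and for 1 by limma voom, and for none of the 10 by any of them; 4 of the 10 had an unadjusted p under 0.05 (Fbln2, Ltbp4, Loxl1 and Fbln5), all with a positive value.

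Ratios of related genes within a library need no scaling factor, but they were not adjusted for a library's GC trend. Lox has 43.9% GC and Loxl1 61.0% GC. The ratios were tested by an exact two-sided permutation of PNX and sham labels within day, with 200 arrangements and a smallest possible p of 0.005, and adjusted over 4 ratios. The log2 ratio of Fbln2 to Fbln5 was 0.25 ± 0.49 in PNX at day 7, against -0.45 ± 0.72 in sham, and -0.31 ± 0.35 in PNX at day 14, against -1.45 ± 0.63 in sham (SD). The mean difference of 0.92 over the days had an exact permutation p of 0.025 and an adjusted p of 0.10. The log2 ratio of Lox to Loxl1 was 0.49 ± 0.50 in PNX at day 7, against -1.89 ± 1.61 in sham, and 0.34 ± 0.20 in PNX at day 14, against -0.11 ± 0.99 in sham, with a mean difference of 1.42 (exact permutation p = 0.07, adjusted p = 0.14). The ratios of Fbn2 to Fbn1 (1.78, adjusted p = 0.347) and of Eln to Fbn1 (-0.07, adjusted p = 0.915) did not pass by the same exact permutation test.

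**Figure D5:**
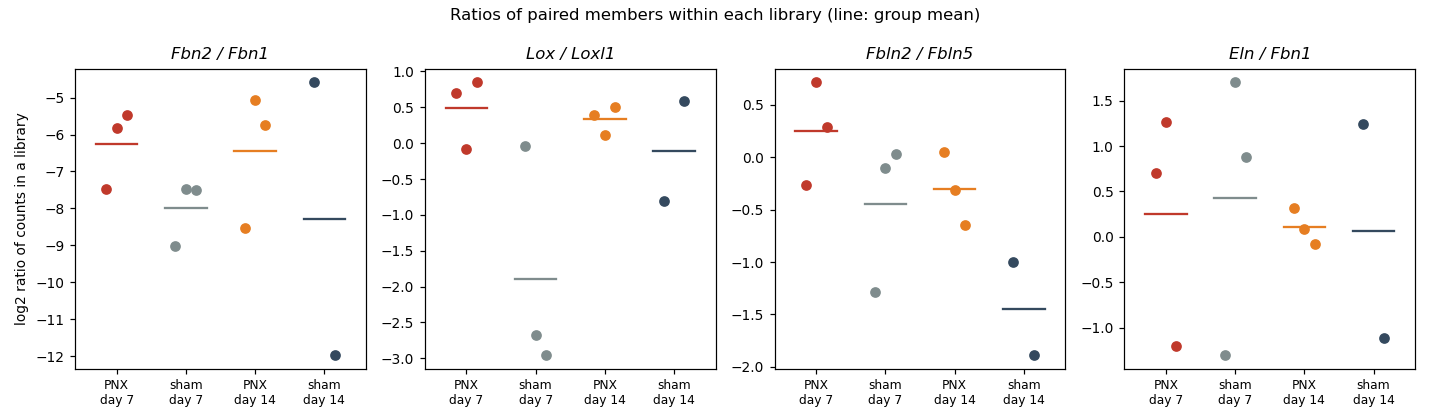
Log2 ratio of counts of paired genes within each library, by group, with a line at the group mean. The Lox to Loxl1 ratio lies near 0 in most libraries and at -2.68 and -2.96 in sham replicates 2 and 3 of day 7; the Fbln2 to Fbln5 ratio is lowest in the 2 sham libraries of day 14 and in sham replicate 1 of day 7.

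Among the wider set of elastic fibre genes, a list of 36 of which 35 were tested, edgeR called 1 gene, in the mean of both days, beside 0.194% of all genes there. Cela1, which encodes a chymotrypsin-like elastase that cleaves elastin, stood at 3.06, 4.15 and 18.5 CPM in PNX at day 7, against 2.25, 0.644 and 1.60 CPM in sham, and at 9.51, 22.3 and 24.5 CPM in PNX at day 14, against 1.01 and 0.610 CPM in sham. All 6 PNX libraries were above all 5 sham libraries, as for 0.637% of all genes. In the mean of both days Cela1 rose by 3.54 ± 0.57 on the log2 scale (adjusted p = 0.0105). The adjusted p was 0.0516 with the GC offset and replicate block, 0.0612 without PNX replicate 2 of day 14, 0.101 without sham replicate 2 of day 14 and 0.476 with limma voom, and the sham libraries held 3 to 16 counts each. With edgeR neither day alone passed, at 2.49 ± 0.67 (adjusted p = 0.121) for day 7 and 4.60 ± 0.91 (adjusted p = 0.0808) for day 14. DESeq2 gave Cela1 an adjusted p of 0.0220 at day 7 and 0.000293 at day 14, and at day 14 edgeR gave 0.00570 without the filter on low counts, 0.00251 with only the groups compared, 0.0251 without PNX replicate 3 of day 7 and 0.0391 without sham replicate 2 of day 7.

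EdgeR called no other gene of the list. The other tools were read only for the 3 genes of smallest edgeR p in each comparison of PNX with sham. Among those, DESeq2 also called Emilin2 and Adamtsl4 at day 7 and Bmp1 and Ctss at day 14. At day 14, 9 of 10 microfibril accessory genes, 6 of 6 cross-linking genes, 7 of 8 microfibril-binding Adamts genes, 4 of 4 scaffold and receptor genes and 4 of 7 elastin-degrading genes had a positive log2 fold change. The median was 0.52 over the 35, beside -0.07 over all genes, of which 45.1% were positive. All these values rest on the same 2 sham libraries. At day 7 the positive values numbered 3 of 10, 2 of 6, 2 of 8, 2 of 4 and 6 of 7 in the same order. The median there was -0.08, beside 0.03 over all genes, of which 51.7% were positive. Bmp1, the protease that activates lysyl oxidase and trims its partners, stood at 129, 133 and 98.2 CPM in PNX at day 14, against 33.6 and 44.5 CPM in sham (1.61 ± 0.37, adjusted p = 0.128 with edgeR, 0.00153 with DESeq2 and 0.0444 with the background covariate). In the mean of both days Bmp1 had a log2 fold change of 1.00 ± 0.24 (adjusted p = 0.0920 with edgeR), and the adjusted p was 0.00249 with DESeq2, 0.0405 with total counts, 0.0255 with the background covariate and 0.0206 with the GC offset. Loxl2, another lysyl oxidase, averaged 122 CPM over the PNX libraries and 71.9 CPM over the sham libraries, with a log2 fold change of 0.74 ± 0.25 in the mean of both days (adjusted p = 0.254). Emilin2, an elastin-interface glycoprotein, averaged 23.6 ± 7.78 CPM in PNX and 103 ± 101 CPM in sham at day 7 (-2.12 ± 0.52, adjusted p = 0.102), and Adamtsl4, which binds fibrillin-1, averaged 16.7 ± 3.74 and 55.3 ± 39.1 CPM in the same groups (-1.73 ± 0.44, adjusted p = 0.105). For both, as for Loxl1 and Ltbp4, sham replicate 3 of day 7 was the highest library, at 219.5 CPM for Emilin2 and 97.3 CPM for Adamtsl4. Without that library the log2 fold change was -0.92 for Emilin2 and -1.03 for Adamtsl4 (adjusted p = 0.699 for both). DESeq2 gave adjusted p values of 0.00489 and 0.0162, limma voom 0.0162 and 0.0192, edgeR without the filter 0.0325 and 0.0270, and edgeR without sham replicate 1 of day 7 0.0155 and 0.00724, for Emilin2 and Adamtsl4 in that order. Ctss, a cathepsin with elastase activity that macrophages express strongly, averaged 21.9 ± 8.82 CPM in PNX and 101.5 ± 32.9 CPM in sham at day 14 (-2.21 ± 0.54, adjusted p = 0.178 with edgeR, 0.0153 with DESeq2, 0.0114 with only the groups compared and 0.0391 without sham replicate 2 of day 7). The 10 haematopoietic markers summed to 296 to 730 CPM in PNX at day 14 and 643 to 806 CPM in sham at day 14, all 10 with a negative log2 fold change and none past the test at day 14; their part in the Ctss values was not tested.

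Between the days, the smallest p values of the wider list belonged, with log2 fold changes of day 14 over day 7, to the macrophage elastase gene Mmp12 (3.14 ± 0.91, adjusted p = 0.513), Adamtsl3 (1.43 ± 0.58, adjusted p = 0.724) and Fkbp10 (-0.86 ± 0.37, adjusted p = 0.724) after PNX, and to Ctss (3.09 ± 0.55, adjusted p = 0.0729), Emilin2 (-2.89 ± 0.64, adjusted p = 0.0975) and Emilin1 (-2.15 ± 0.58, adjusted p = 0.116) after sham. For the interaction they belonged to Emilin2 (3.20 ± 0.79, adjusted p = 0.283), Ctss (-2.49 ± 0.73, adjusted p = 0.351) and Adamtsl4 (2.15 ± 0.66, adjusted p = 0.355).

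Across the 11 libraries the 10 genes did not move as one. The 45 pairwise Pearson correlations of log2 CPM had a median of 0.24 and were positive for 33, from 0.86 for Fbn1 with Lox and 0.83 for Ltbp4 with Loxl1 to -0.78 for Fbn2 with Mfap4. Lox and Loxl1, the pair of cross-linking enzymes, stood at -0.17. Among 9705 other genes with a mean log2 CPM of at least 3, the 5 most like Eln over the 11 libraries were Col4a1 (r = 0.94), Ctif (0.92), Mical2 (0.89), Tsc22d2 (0.89) and Col4a2 (0.87). The 5 most like the mean of the 10 genes were Col6a1 (0.98), Adamts2 (0.96), Srgap2 (0.95), Mtmr11 (0.94) and Usp28 (0.94). These correlations share the libraries' depth, background and GC trends and describe these libraries only.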

How the data were processed

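Bulk RNA sequencing covered 11 libraries of sorted lung mesenchymal cells, prepared with a micro-scale RNA extraction kit and a low-input library kit per the labels' protocols. The deposited values are whole read counts per gene symbol, unscaled; 1371 of 24411 symbols had no count. Per the submitters' processing notes, bcl2fastq 2.20.0.422 and mm10 were used; the aligner, counter, annotation and strand setting are not given in the sources used here.

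The members and all lists were chosen with earlier results of these data known, so no count over them is independent support. In R 4.3.3, edgeR 4.0.16 tested the counts: filterByExpr dropped 8400 genes, 16011 were kept, TMM scaled the libraries, and robust quasi-likelihood F tests used 4 group means over 11 libraries (7 residual degrees of freedom). Benjamini-Hochberg adjustment ran over every tested gene, at a threshold of 0.05. A standard error is the absolute log2 fold change over the square root of F. CPM uses TMM factors; for the background (1455 olfactory and vomeronasal receptor symbols) it is a plain share of total counts. Ratios had a pseudocount of 0.5 counts.

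Alternatives were DESeq2 1.42.0, limma 3.58.1 voom with sample weights, RLE factors, total counts, no low-count filter, fits of only the groups compared, a replicate block, a background covariate, a ratio pseudocount of 5, and omission of each library in turn. A GC offset (lowess span 0.5, 9399 genes), with or without the block, and a covariate for Y-linked counts were chosen after seeing the data. The text names all members and, from the wider list, genes past the threshold or, where fewer than 3 passed, the 3 of smallest p per comparison. Symbols matched GENCODE M21 on GRCm38 for 23376 genes (95.8%), which gave locations, the exon and exon-union lengths, without regard to the isoforms in use; promoters came from RefSeq. Figures were drawn with matplotlib 3.10.9.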

Additional observations from a re-analysis of the deposited data

How the results depend on the processing

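No member passed in edgeR, and the count of members called moved with the tool and with single libraries. At day 7 it was 3 with DESeq2, 2 with limma voom, 2 without the filter on low counts and 0 to 2 with one library left out. In the mean of both days it was 1 with DESeq2 and 0 to 1 with one library left out. For day 14 against day 7 it was 1 with limma voom after PNX, and after sham 3 with DESeq2, 2 without the filter and 0 to 4 with one library left out. It was 0 to 1 at day 14 and 0 to 2 for the interaction with one library left out. Over 42 member results, 425 of 447 values under other settings kept direction and side of the threshold, 14 passed the threshold and 8 reversed; with one library left out, 433 of 462 did, 13 passed and 16 reversed. The cause was not tested.

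Values near 0 reversed: Efemp2 at day 7 was -0.0561 without the filter and -0.14 with the Y-linked covariate, and in the mean of both days 0.0275 with the GC offset and 0.0465 with the GC offset and replicate block. Fbln5 at day 14 was -0.0027 with total counts, -0.0718 with the replicate block, -0.0112 with the GC offset and -0.15 with the GC offset and replicate block. With one library left out the log2 fold change ran from -0.0878 to 0.79 for Eln, and from -0.0934 to 0.14 for Efemp2, at day 7; at day 14 from -0.56 to 0.49 for Efemp2, from -0.52 to 1.28 for Fbln5, from -0.51 to 1.75 for Ltbp4 and from -1.15 to 0.44 for Mfap4; in the mean of both days from -0.28 to 0.23 for Efemp2 and from -0.70 to 0.0734 for Mfap4. The ratio of Fbn2 to Fbn1 ran from -0.063 to 3.63, that of Eln to Fbn1 from -0.65 to 0.52, that of Fbln2 to Fbln5 from 0.70 to 1.14 (adjusted exact p = 0.04 at 1.05, without PNX replicate 1 of day 7) and that of Lox to Loxl1 from 1.07 to 1.88. Where sham at day 14 keeps 1 library, that library is assumed to vary like the others.

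Counts of all genes called as higher and lower in PNX at day 7 were 6 and 0 with edgeR, 129 and 313 with DESeq2, 272 and 660 with limma voom, 44 and 134 without the filter, and 3 to 39 and 0 to 386 with one library left out. At day 14 they were 1 and 0 with edgeR, 67 and 44 with DESeq2, 0 and 0 with limma voom, 14 and 13 without the filter, 20 and 32 with only the groups compared and 23 and 12 with the background covariate. In the mean of both days they were 22 and 9 with edgeR, 131 and 174 with DESeq2, 3 and 2 with limma voom, 28 and 22 with total counts, 26 and 23 with the GC offset and 55 and 22 with the background covariate. For day 14 against day 7 after sham they were 3 and 0 with edgeR, 317 and 345 with DESeq2, 1 and 0 with limma voom, 51 and 51 without the filter, and 1 to 292 and 0 to 666 with one library left out. With one library left out they were also 0 to 60 and 0 to 14 at day 14, 6 to 44 and 2 to 148 in the mean of both days, 0 to 250 and 0 to 120 for the interaction, and 0 and 0 to 2 after PNX. Total counts moved the all-gene median by 0.18 at day 7, -0.19 at day 14, -0.37 for the interaction and -0.29 for day 14 against day 7 after PNX on the log2 scale.

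The replicate number as a block called none of the 10 members in any comparison; Ltbp4 at day 7 was -2.24 (adjusted p = 0.190). Same-numbered PNX and sham libraries deviated together with r from -0.135 to 0.56 at day 7, and 1 of 3 PNX libraries correlated best with its own number. So few pairs cannot decide whether the numbers pair samples, and the labels do not say. Fbn2 rests on 494 counts in all and ranged from 0.122 to 21.7 CPM over the libraries. The part of depth in its precision was not tested.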
